A study of Mus musculus with 179 samples.

Results

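Lcn2, C3, Cxcl1, Cxcl2, Cxcl5, Ccl20, Nfkbia, Il33 and Saa3 are 9 genes of innate defence, chosen by name, among 32100 genes counted in single mouse cells. RNA was sequenced by Smart-seq3, a full-length method that tags each molecule with a unique molecular identifier (UMI), as the transcriptome side of an assay (scNMT-seq) whose methylation and accessibility reads were not used here. Each cell was a sample of its own. All cells formed 1 group: wild type C57BL6 exocrine pancreas, enriched for acinar cells by enzymatic dissociation and a density gradient, then grown for 9 days as organoids in Matrigel. The labels gave no sex, age, animal, culture or treatment, so cells are not replicates of a condition, nothing was tested, and no p-value is given. Levels are UMIs of a gene per 1000000 UMIs of the cell or pool (CPM), pooled levels carry exact 95% Poisson intervals, shares carry exact 95% Clopper-Pearson intervals, and both cover counting error only.

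When a receptor for tumour necrosis factor, interleukin 1 or a microbial product is engaged, IkB kinases mark the inhibitor IkBa for destruction, and the NF-kB subunits it held move to the nucleus and switch on defence genes. Nfkbia, which encodes IkBa, is itself such a gene and closes a feedback loop. In epithelia the programme yields acute phase proteins (lipocalin 2, serum amyloid A3), complement C3, chemokines that draw neutrophils through the receptor CXCR2 (Cxcl1, Cxcl2, Cxcl5) or lymphocytes and dendritic cells through CCR6 (Ccl20), while Il33 encodes a nuclear alarmin released from damaged barrier cells. In the pancreas Lcn2 and several of these chemokines are known from pancreatitis and from acinar cells that take on duct features.

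All but 7 of the cells were taken as epithelial because a list of 12 fibroblast genes stayed under 1000 CPM and a list of 10 epithelial genes reached at least 1000 CPM. The epithelial list had a median of 16417 CPM in these cells (5182 to 39469). Although the labels call the cells acinar, a list of 19 acinar genes had a median of only 135.5 CPM in the epithelial cells (0 to 245984), beside a median of 9602 CPM for 11 duct genes, of which Krt19 and Krt7 are also in the epithelial list. In 6 further cells, called fibroblast-rich here, the fibroblast list reached 7068 to 18027 CPM. The last cell, titled Acinar85, had 1174 CPM of the fibroblast list and 19774 CPM of the epithelial list and was put in neither set. Depth ran from 3258 to 329522 UMIs per cell (median 165267) with a median of 11582 genes. For shares and co-variation 40000 UMIs were drawn from each cell (thinning), so that 17 shallower epithelial cells dropped out and none of the 6 fibroblast-rich cells. Of 11 genes of macrophages and other leukocytes, C1qa and Laptm5 had no UMI in epithelial cells, and the summed list had a median of 0 and a maximum of 259 CPM.

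The promoters of the inhibitor gene, 3 chemokine genes and C3 are shown first, to set side by side which of them hold letters known from the motifs of NF-kB and C/EBP factors. RefSeq starts on GRCm38.p6 were found for 8 of the 9 genes, and the 250 bases before each start were searched on both strands for GGGNNTTTC (the larger part of an NF-kB motif), TTGCNNAA (a C/EBP motif) and TTCNNNGAA (a STAT motif), letters that were chosen with the sequences in view. Capitals mark each match, read 5′ to 3′ on the strand of the gene.
Nfkbia (chr12:55492648-55492897, minus strand): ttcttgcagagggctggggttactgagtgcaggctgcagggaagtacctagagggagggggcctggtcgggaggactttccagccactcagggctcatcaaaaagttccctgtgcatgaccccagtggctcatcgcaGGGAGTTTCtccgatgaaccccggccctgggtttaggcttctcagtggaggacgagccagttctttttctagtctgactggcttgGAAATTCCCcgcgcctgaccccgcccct
Cxcl1 (chr5:90890995-90891244, plus strand): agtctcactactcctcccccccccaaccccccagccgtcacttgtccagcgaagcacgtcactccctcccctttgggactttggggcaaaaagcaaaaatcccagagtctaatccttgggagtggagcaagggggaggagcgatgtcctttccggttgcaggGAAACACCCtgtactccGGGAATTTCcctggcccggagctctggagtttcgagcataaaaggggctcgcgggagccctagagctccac
Cxcl2 (chr5:90903649-90903898, plus strand): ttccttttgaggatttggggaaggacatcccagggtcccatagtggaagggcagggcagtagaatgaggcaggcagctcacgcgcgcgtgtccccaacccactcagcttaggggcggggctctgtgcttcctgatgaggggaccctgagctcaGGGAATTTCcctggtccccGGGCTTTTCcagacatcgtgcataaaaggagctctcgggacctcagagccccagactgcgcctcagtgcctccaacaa
Ccl20 (chr1:83116516-83116765, plus strand): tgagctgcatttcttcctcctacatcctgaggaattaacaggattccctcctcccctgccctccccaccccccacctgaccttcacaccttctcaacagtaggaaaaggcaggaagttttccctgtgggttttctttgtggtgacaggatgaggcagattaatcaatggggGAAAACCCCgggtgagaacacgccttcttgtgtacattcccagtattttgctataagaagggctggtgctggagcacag
C3 (chr17:57228137-57228386, minus strand): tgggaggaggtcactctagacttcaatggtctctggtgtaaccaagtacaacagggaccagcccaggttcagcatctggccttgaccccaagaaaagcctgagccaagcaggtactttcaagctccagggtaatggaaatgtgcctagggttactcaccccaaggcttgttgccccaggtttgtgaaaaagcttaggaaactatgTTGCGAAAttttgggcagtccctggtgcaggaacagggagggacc
The NF-kB letters occurred before the starts of Nfkbia, Cxcl1, Cxcl2 and Ccl20, and in 3.72% of all 32851 promoter windows of that length. Cxcl1 and Cxcl2 share the run GGGAATTTC, at 71 to 63 bases before the start of Cxcl1 and 97 to 89 bases before that of Cxcl2, and each holds a further match. In Nfkbia the reverse form GAAATTCCC lay 28 to 20 bases upstream, with a further match, GGGAGTTTC, farther upstream. The C/EBP letters occurred in C3 (TTGCGAAA, 45 to 38 bases upstream), in Lcn2 (TTGCTCAA, 216 to 209 bases upstream), in Saa3 and at one of the Il33 starts, and in 9.56% of all windows. The STAT letters were found in none of the 8 genes' windows and in 7.02% of all windows. A match describes letters only, and none of the matches overlapped another.

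Nfkbia (chr12:55489410-55492647, minus strand) was detected in nearly all epithelial cells. Its level per cell ran from 0 to 1131 CPM with a median of 157.2 CPM and quartiles of 66.7 and 304 CPM, and pooled UMIs gave 220.4 CPM (215 to 226). The 6 fibroblast-rich cells held 43.8, 32.3, 16.8, 14.95, 9.38 and 6.26 CPM. All of these lay under the lower quartile of the epithelial cells, and within their range. After thinning, 91.6% of epithelial cells (86.1% to 95.5%) had an Nfkbia UMI, against 94.2% without thinning, while 4 of 6 thinned fibroblast-rich cells had one.

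Lcn2 (chr2:32384633-32388252, minus strand), which encodes the iron siderophore-binding lipocalin 2, was the most abundant of the 9 genes and spanned the widest range. Its level ran from 0 to 7406 CPM with a median of 922 CPM and quartiles of 71.5 and 2614 CPM. There were 48 epithelial cells under 100 CPM, 41 between 100 and 1000 CPM and 83 at or above 1000 CPM. The labels do not say whether low and high cells came from the same culture. Pooled epithelial UMIs gave 1394 CPM (1379.5 to 1408). In the fibroblast-rich cells the level was 308 CPM in Acinar188 and 31.3, 14.95, 12.9, 9.38 and 8.77 CPM in the others. Acinar188 also had the highest epithelial list of the fibroblast-rich cells, 7279 CPM, and the part of any admixed RNA was not tested. A UMI was present in 92.9% of thinned epithelial cells (87.7% to 96.4%).

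Saa3 (chr7:46711998-46715700, minus strand), an acute phase serum amyloid, was near silent in the epithelium. Only 10 epithelial cells had a UMI, with 250 CPM in Acinar132, 213 CPM in Acinar54, 101.05 CPM in Acinar187 and at most 44.8 CPM in the other 7, and the pooled level was 4.75 CPM (3.96 to 5.65). The richest Saa3 cells were unlike each other in the rest of the set: Acinar132 and Acinar54 had 4866 and 3384 CPM of Lcn2, and Acinar187 had 25.3 CPM. The highest Saa3 level of the series was in the fibroblast-rich cell Acinar188, with 2226 CPM (397 UMIs), and the other 5 fibroblast-rich cells had none. The fibroblast-rich level therefore rests on 1 cell. With a mean of 0.232 UMI per thinned cell, Saa3 fell below the minimum of 0.5 and was left out of the gene-by-gene co-variation.

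C3 (chr17:57203970-57228136, minus strand), the central protein of the complement cascade, ranked 3 by UMIs. Its level ran from 0 to 3203 CPM with a median of 177.7 CPM and quartiles of 20.6 and 699 CPM, and pooled UMIs gave 415 CPM (408 to 423). The top value came from Acinar118, a shallow cell with 8117 UMIs of which 26 were C3. Among cells deep enough to thin, the richest was Acinar72 with 2793 CPM. In the fibroblast-rich cells C3 stood at 437 CPM in Acinar188, 29.9 CPM in Acinar182, 12.9 and 12.5 CPM in another pair and 0 in the other 2. The microRNA gene Mir6978 overlaps C3 on the same strand and had 1 UMI.

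The chemokine genes lie close together on chromosome 5, Cxcl5 at chr5:90759360-90761624, Cxcl1 at chr5:90891241-90893115 and Cxcl2 at chr5:90903871-90905938, all on the plus strand. Cxcl5 was the broadest: 0 to 2500 CPM with a median of 614 CPM and quartiles of 216 and 993 CPM, a UMI in 97.4% of thinned cells (93.5% to 99.3%), and 697 CPM over pooled UMIs (687 to 707). Cxcl1 had a median of 73.6 CPM (0 to 1257), a UMI in 71.6% of thinned cells (63.8% to 78.6%) and 193 CPM pooled (188.1 to 198.6). Cxcl2 had a median of 0 (0 to 1320 CPM), a UMI in 40% of thinned cells (32.2% to 48.2%) and 85.1 CPM pooled (81.7 to 88.7). The 3 CXCR2 ligands thus went from nearly every cell to a minority of cells. The 10 richest cells held 19.8% of the Cxcl5 UMIs, 34.2% of the Cxcl1 UMIs and 51.9% of the Cxcl2 UMIs. Their richest cells were not all the same: Acinar176 was among the top 3 for each, whereas Acinar141 had 1175 CPM of Cxcl2 and no Cxcl1 UMI, and Acinar145 had 1250.4 CPM of Cxcl1 and no Cxcl2 UMI. In the fibroblast-rich cells the highest values were 89.7 CPM for Cxcl5, 45.2 CPM for Cxcl1 and 37.4 CPM for Cxcl2, and pooled levels were 34.6, 10.3 and 7.49 CPM in that order.

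Ccl20 (chr1:83116766-83119167, plus strand), the ligand of CCR6, was concentrated in few cells. Its median was 5.97 CPM and its upper quartile 45.2 CPM, yet the maximum was 1877 CPM, and 64.9% of all its UMIs came from 10 cells. Pooled UMIs gave 114.2 CPM (110.2 to 118.4). Thinned to 40000 UMIs, 39.4% of epithelial cells (31.6% to 47.5%) had a UMI, against 61.05% unthinned, and none of 6 fibroblast-rich cells did, where 4 of 6 had one before thinning. The 3 richest cells differed in their Lcn2: Acinar181 had 1877 CPM of Ccl20 with 3571 CPM of Lcn2, Acinar184 had 1642 CPM with 37.8 CPM, and Acinar76 had 1521 CPM with 827 CPM. All 3 had high Cxcl5, between 1252 and 1581 CPM.

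Il33 (chr19:29925114-29960718, plus strand) had a median of 24.5 CPM, quartiles of 7.85 and 60.4 CPM and a maximum of 861 CPM, and its pooled level was 58.3 CPM (55.4 to 61.2). A UMI was present in 60.6% of thinned cells (52.5% to 68.4%). Its 10 richest cells held 48.3% of the UMIs. The leading 2, Acinar22 and Acinar155, had 861 and 801 CPM of Il33 but only 13.5 and 41.8 CPM of Lcn2, 0 and 20.9 CPM of C3, and no Cxcl2 UMI. Both stood low for every other gene of the set, at or below 41.8 CPM.

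**Figure D1:**
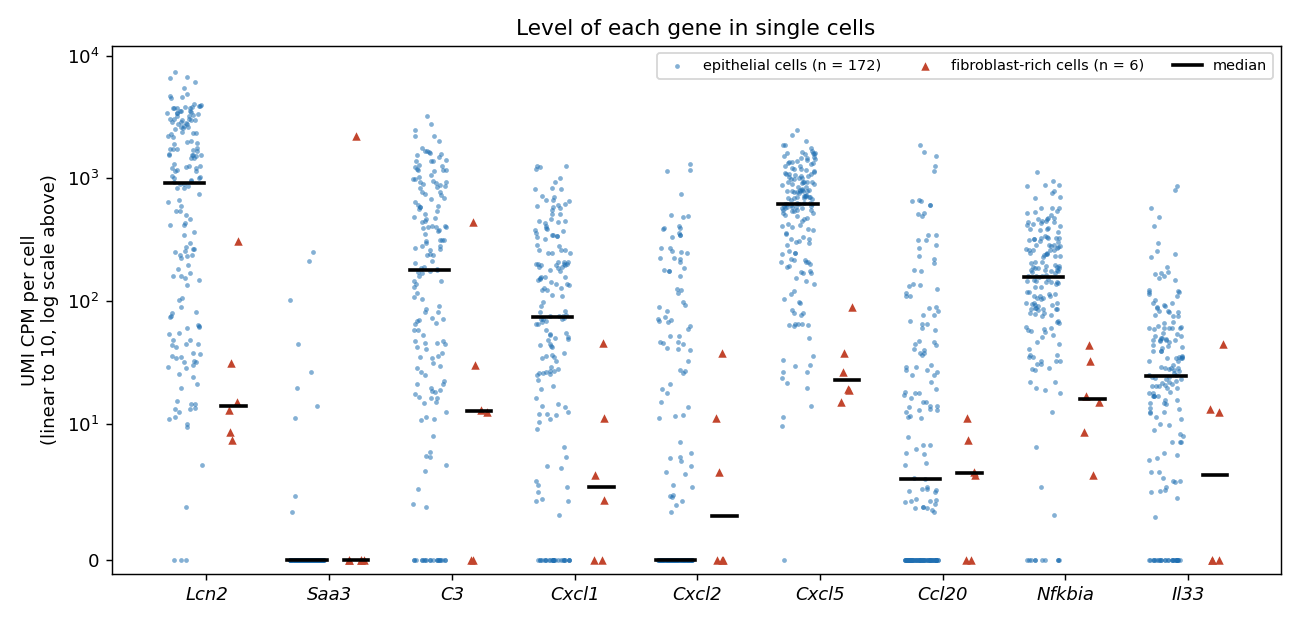
UMI CPM of each gene in single cells, for epithelial cells (blue points) and 6 fibroblast-rich cells (red triangles); black bars are medians, and the axis is linear up to 10 CPM and logarithmic above. Lcn2 and Cxcl5 lie highest in epithelial cells with medians of 922 and 614 CPM, the medians of Cxcl2 and Saa3 are 0, and the single high Saa3 triangle at 2226 CPM is Acinar188.

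Summed, the 9 genes made 3182 CPM of pooled epithelial UMIs (3161 to 3204), with a median of 2470 CPM per cell, quartiles of 827 and 4934 CPM and a range of 49.1 to 14045 CPM. The pooled sum was 608 CPM in fibroblast-rich cells (562 to 656), where the median cell had 112.4 CPM and Acinar188 had 3157 CPM. Ordered by reads per kilobase of exon, Lcn2 (656 read CPM per kilobase) and Cxcl5 (408) led. Nfkbia (119.5), Cxcl1 (108.3), C3 (93.9) and Ccl20 (83.1) followed, and Cxcl2 (37.6), Il33 (19.9) and Saa3 (1.17) were lowest. Reads per UMI did not follow exon length, with 2.69 for C3 (5143 bases), 2.86 for Lcn2 (2623 bases) and 2.39 for Ccl20 (1421 bases). Whether dividing by exon length suits these reads was not tested. C3 ranked 3 by UMIs and 5 by reads per kilobase, so the order of the middle genes depended on the scale. The deep cells with the highest sums were Acinar102 with 13242 CPM, Acinar96 with 11667 CPM, Acinar95 with 10736 CPM, Acinar121 with 9740 CPM and Acinar176 with 9030 CPM. They did not share 1 profile: Lcn2 made 7406 CPM in Acinar102 and 2369 CPM in Acinar176, while Cxcl2 made 335 CPM in Acinar102, 1146 CPM in Acinar176 and 6.48 CPM in Acinar121. At least 5 of the 9 genes were detected in 79.4% of thinned epithelial cells, and all 9 in 2 cells.

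Variation between cells beyond counting noise was high for the set. Each gene's squared coefficient of variation, less its Poisson part, was ranked against genes of like mean among 13357 genes. The percentile was 98.6 for Ccl20, 98.001 for Cxcl2, 97.3 for Saa3, 96.7 for Lcn2, 96.03 for Il33, 95.5 for Cxcl1, 95.4 for C3, 90.3 for Nfkbia and 88.9 for Cxcl5. The chemokine found in nearly all cells, Cxcl5, and the inhibitor Nfkbia were the steadiest of the set, although both varied more than most genes of their level.

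Co-variation was described by Spearman's rho of thinned UMIs over the epithelial cells with enough UMIs (77 with title numbers up to 96 and 78 with higher ones). It is a description of cells whose animals and cultures are not named, with no p-value. The genes were chosen with earlier results of these data known, so their counts beside the share of all genes are no test. Saa3 aside, 8 genes were abundant enough, and 16 of 28 pairs reached a rho of 0.3 and none fell to -0.3. Lcn2 and C3 moved most closely, with a rho of 0.88 over all of them, 0.88 over the lower title numbers and 0.87 over the higher ones. With Lcn2, 5 of the 7 other genes reached 0.3, namely C3, Cxcl5 (0.60), Cxcl2 (0.46), Nfkbia (0.45) and Cxcl1 (0.38), against 2.37% of all 9637 genes. With C3 the count was also 5 of 7, against 2.83% of all genes. Of all genes, 1.96% fell to -0.3 with Lcn2, 1.66% with C3, 0.726% with Cxcl1, 0.353% with Cxcl2, 0.851% with Cxcl5, 0.986% with Ccl20, 0.291% with Nfkbia and 0.104% with Il33, and none of the set did so with another. Lcn2 and Ccl20 stood at 0.29 and Lcn2 and Il33 at -0.27.

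Nfkbia co-varied with the same group, less closely than Lcn2 and C3 did with each other. Its rho was 0.49 with Cxcl2, 0.47 with Cxcl1, 0.46 with C3, 0.45 with Lcn2 and 0.35 with Cxcl5, so 5 of 7 genes reached 0.3, against 0.685% of all genes. Cxcl2, Cxcl1, C3 and Lcn2 were the 4 genes of all 9637 with the highest rho with Nfkbia, followed by Tmem176b (0.45), a membrane protein gene. Between the neighbours Cxcl1 and Cxcl2 rho was 0.40, between Cxcl1 and Cxcl5 0.45 and between Cxcl2 and Cxcl5 0.39. With Cxcl1, 5 of 7 genes reached 0.3 against 1.01% of all genes, with Cxcl2 5 of 7 against 0.602%, and with Cxcl5 6 of 7 against 1.46%.

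Ccl20 and Il33 co-varied less with the rest. Of the 7 others Ccl20 reached 0.3 with Cxcl5 alone (0.43), against 1.72% of all genes, and stood at 0.29 or less with the rest. Its rho with Lcn2 lay close to that threshold and ran from 0.27 to 0.33 over the alternative settings. Il33 reached 0.3 with none of the 7, a count near the share of 0.0519% of all genes. Its rho ran from -0.27 with Lcn2 to 0.02 with Cxcl2. When UMIs of the same cell were drawn in 2 separate sets, the same gene gave a rho of 0.97 for Lcn2, 0.95 for C3, 0.94 for Cxcl5, 0.90 for Cxcl1, 0.84 for Cxcl2, 0.83 for both Ccl20 and Nfkbia and 0.52 for Il33, over the cells with at least 80000 UMIs, 18 fewer. Saa3, left out of the gene-by-gene co-variation, gave 0.78. Il33 had the lowest of these values, and the part of counting noise in its rho with the other genes was not tested. Against the summed other genes of the set, rho was 0.84 for C3, 0.80 for Lcn2, 0.60 for Cxcl5, 0.53 for Cxcl2, 0.52 for Nfkbia, 0.48 for Cxcl1, 0.33 for Ccl20, 0.02 for Saa3 and -0.24 for Il33. Depth, genes detected, mitochondrial share, ribosomal protein share, reads per UMI and title number moved little with any of the 9 genes, the highest rho being 0.24 for C3 with the mitochondrial share.

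**Figure D2:**
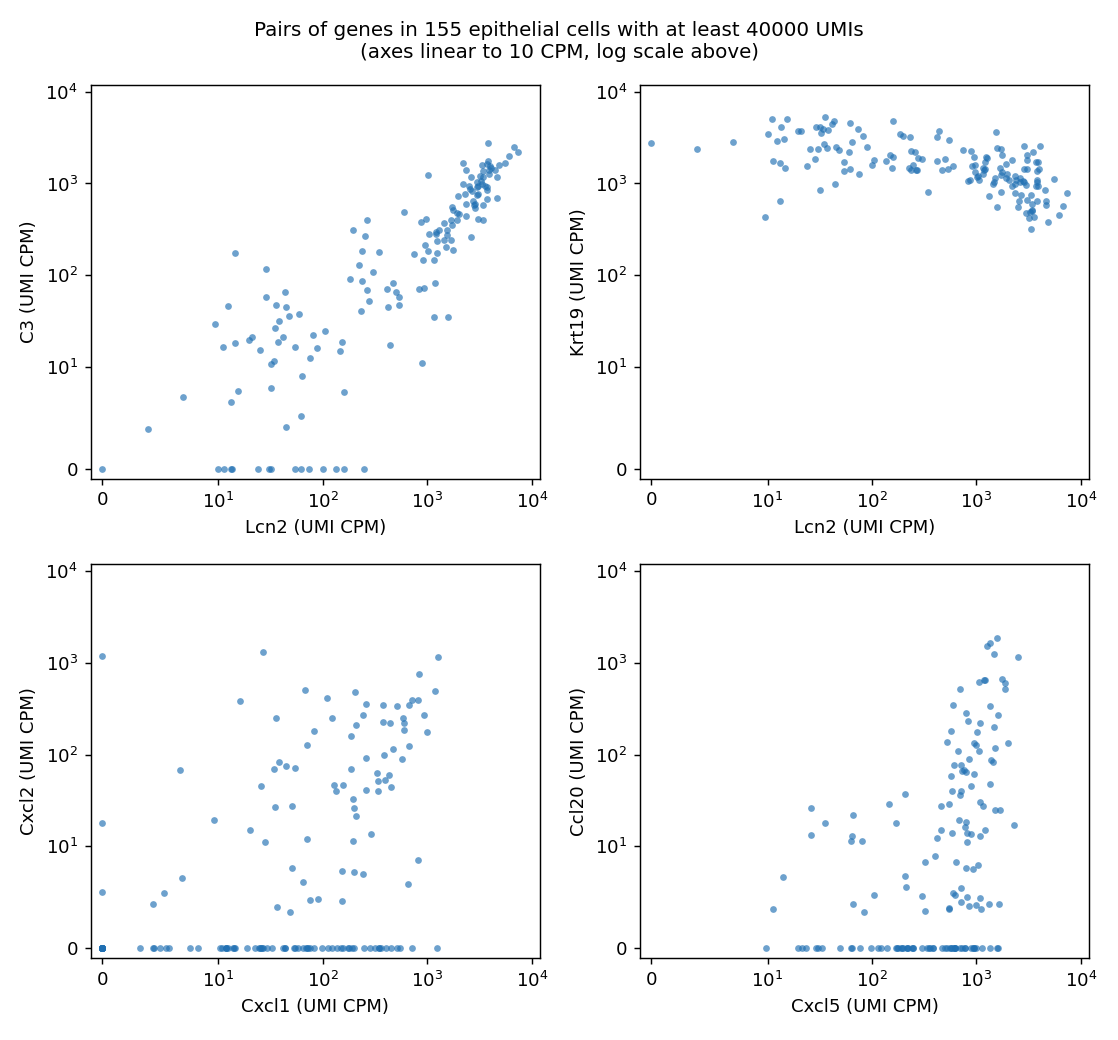
UMI CPM of 4 gene pairs in the epithelial cells with at least 40000 UMIs, each point a cell, axes linear up to 10 CPM and logarithmic above. C3 climbs with Lcn2 (rho 0.88), Krt19 lies lower where Lcn2 is high (rho -0.65), Cxcl1 and Cxcl2 are looser (rho 0.40), and cells rich in Ccl20 have high Cxcl5 while many high Cxcl5 cells have no Ccl20 (rho 0.43).

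The genes nearest to each member were partly shared. Behind C3, Lcn2 was closest to Cp (rho 0.87), which encodes the acute phase copper oxidase ceruloplasmin, Tmem176b (0.82), Tmem176a (0.75) and Ltf (0.73), which encodes the iron-binding lactoferrin. Lcn2 was lowest with S100a6 (-0.67), the mesothelin gene Msln (-0.66) and the keratin gene Krt19 (-0.65). C3 had Cp (0.86), Tmem176b (0.81), Tmem176a (0.76) and the transferrin gene Trf (0.71) behind Lcn2. Lactoferrin, transferrin and ceruloplasmin are all known to bind iron or copper. Cp itself had 866 pooled CPM in epithelial cells. It was among the 10 nearest genes of Lcn2, C3, Cxcl1, Cxcl2, Cxcl5 and Nfkbia, but not of Ccl20 or Il33.

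Cxcl1 was nearest to Cp (0.51), the transcription factor gene Nfib (0.50), Csf1 (0.49), which encodes a macrophage growth factor, the transporter gene Slco3a1 (0.49) and Igfbp7 (0.47). Cxcl2 had C3 (0.51), Cp (0.50), Nfkbia (0.49), Lcn2 (0.46) and Csrp1 (0.45) nearest. Cxcl5 had Lcn2 (0.60), Tmem176b (0.57), the microsomal glutathione transferase gene Mgst1 (0.53), Cp (0.53) and Tmem176a (0.53). Ccl20 was nearest to Pglyrp1 (0.50), which encodes a peptidoglycan recognition protein, the antioxidant enzyme genes Prdx6 (0.49) and Gsta3 (0.48), Spink4 (0.47) and Tnfaip2 (0.47). The 10 genes nearest to Ccl20 held none of the set, nor did the 10 nearest to Il33. Cxcl5 (0.429) lay close to the last of the 10 for Ccl20, Ambp (0.434). Il33 was nearest to Actb (0.34), Higd1a (0.33), Myo1c (0.33), Cdhr2 (0.33) and Msln (0.32), the last of which was among the lowest for Lcn2.

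**Figure D3:**
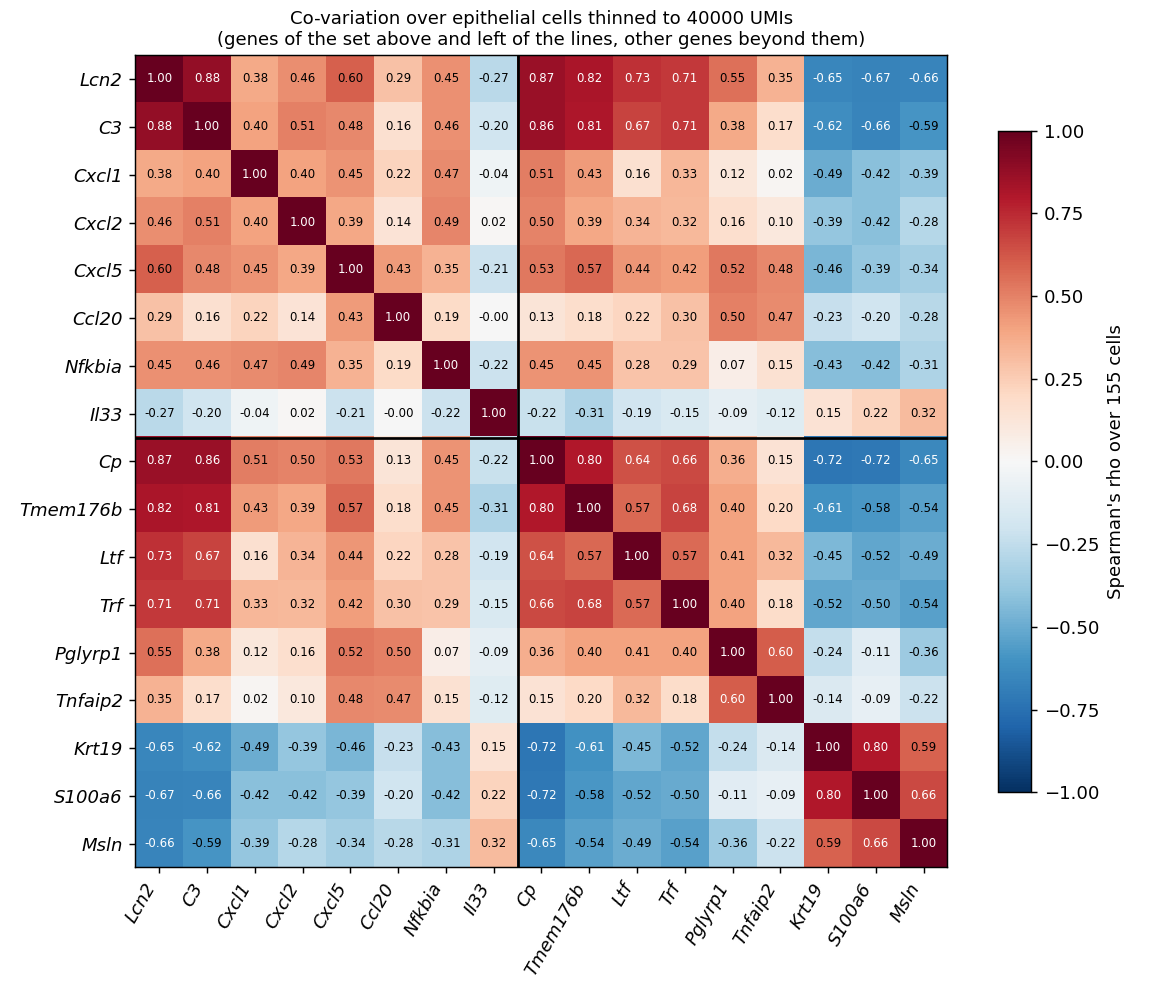
Spearman's rho over thinned epithelial cells between the 8 genes of the set with enough UMIs and 9 further genes; red is positive and blue negative, and the value is printed in each square. Lcn2, C3, Cp and Tmem176b form the reddest block with rho between 0.80 and 0.88, Ccl20 pairs with Pglyrp1 (0.50) and Tnfaip2 (0.47), and the row of Il33 is pale.

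Pathway lists were then read against Lcn2, with 98 other genes abundant enough to test. Of these, 21 passed a rho of 0.3 and 1 fell to -0.3, where 2.37% and 1.96% of all genes did. The lists, too, were chosen with earlier results of these data known, so these counts are no test. Among 7 other acute phase genes 3 passed, Cp, Lrg1 (0.57) and the lipopolysaccharide-binding protein gene Lbp (0.54), with a list median of 0.29 against 0.03 over all genes. The metallothionein gene Mt1, with 149.3 CPM, stood at -0.02. Saa1 and Saa2 were not analysed here. Of 4 other complement genes Cr1l stood at 0.06 and Cd59a at 0.08, while Cfi (0.54), which encodes the protease that cleaves activated C3, passed upward and Cd55 (-0.41), which encodes a complement inhibitor of the cell surface, passed downward.

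Ligands of the cytokine class passed in 4 of 6 cases: Ltb (0.37), Csf3 (0.37), Csf1 (0.35) and Tnf (0.31), with a list median of 0.33. The list summed had a rho of only 0.01 with Lcn2. The interleukin 1 receptor antagonist gene Il1rn, the most abundant at 567 CPM, stood at -0.15, and Lif at 0.12. Of 6 other chemokines Cxcl16 (0.39; 292 CPM) and Pf4 (0.35; 17.5 CPM) passed, and Cxcl3, a further CXCR2 ligand with 50.04 CPM, stood at 0.25 and Cx3cl1 at 0.00. Among 14 receptor genes 3 passed, Cd14 (0.53; 559 CPM), the lipopolysaccharide co-receptor, Il1r1 (0.46; 118.9 CPM), the interleukin 1 receptor, and Il6st (0.41; 52.3 CPM), the shared interleukin 6 family subunit. Ltbr stood at -0.13 and Tnfrsf1a at 0.19.

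Of 19 NF-kB subunits and kinases 0 passed with Lcn2, a count near the share over all genes; Rela stood at 0.28, Myd88 at 0.26, Nfkb1 at 0.24, Relb at 0.20 and Irak1, the most abundant with 175.01 CPM, at 0.07. With C3, Rela (0.42), Relb (0.33) and Nfkb1 (0.31) passed, against 2.83% of all genes. With Cxcl1, Rela (0.32) and Nfkb1 (0.31) did, against 1.01%. With each of Cxcl2, Cxcl5, Ccl20 and Il33, 0 of 19 did, counts near the shares over all genes. Of 19 feedback and target genes, 4 passed, namely the adhesion genes Icam1 (0.42) and Vcam1 (0.40), Tnfaip2 (0.35) and Ier3 (0.35), while Sod2, with 183.99 CPM, stood at -0.01 and Bcl2l1 at 0.11. Read against Nfkbia instead, 3 of 19 subunits and kinases reached 0.3, which were Relb (0.39), Nfkb1 (0.35) and Rela (0.31). With Nfkbia 7 of 19 feedback and target genes did so, among them Birc3 (0.38), Nfkbiz (0.35), Tnfaip3 (0.34) and Relb, which is in both lists as is Nfkb2, against 0.685% of all genes. Of 10 STAT3 pathway genes 0 passed with Lcn2, a count near the share over all genes. Cebpd stood at 0.27, Stat3 at 0.26, Jak1 at 0.17, Bcl6 at 0.07, Il4ra at -0.00 and Pim1 at -0.21. With C3 only Stat3 (0.30) passed, against 2.83% of all genes, and with the other tested genes of the set none did.

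Of 10 epithelial defence genes, 4 passed with Lcn2: Ltf (0.73), the antiprotease gene Slpi (0.68), the immunoglobulin transporter gene Pigr (0.49) and the matrix protease gene Mmp7 (0.47; 1665 CPM). With Ccl20, 6 of the 10 reached 0.3, against 1.72% of all genes: Muc1 (0.44), Pigr (0.43), Duox2 (0.36), Duoxa2 (0.36), Mmp7 (0.34) and Tff2 (0.33). The mucin gene Muc1 stood at 0.00 and Wfdc2 at 0.03 with Lcn2, and Duox2 and Duoxa2, which encode a peroxide-forming oxidase and its maturation factor, at -0.08 and -0.11. Whether the lists differ from each other in this was not tested.

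The partners of these secreted proteins were mostly scarce in the same cells. Cxcr1 and Ccr6 had 0 UMIs in all epithelial cells, which allows up to 0.112 CPM by a limit of 3 counts and up to 0.138 CPM by the exact Poisson interval. Cxcr2, the receptor of Cxcl1, Cxcl2 and Cxcl5, had 38 UMIs in 17 cells, or 1.42 CPM (1.01 to 1.95), and Il1rl1, the receptor of interleukin 33, had 3 UMIs, or 0.112 CPM (0.0231 to 0.328). The anaphylatoxin receptor genes C3ar1 and C5ar1 had 0.299 CPM (0.129 to 0.589) and 3.89 CPM (3.18 to 4.71). Slc22a17 and Lrp2, which encode receptors for lipocalin 2, had 10.8 CPM (9.63 to 12.2) and 8.34 CPM (7.28 to 9.51). Of 5 partner and iron-handling genes abundant enough to test none passed with Lcn2: Slc22a17 stood at 0.19, Tfrc at 0.18, Fth1 at 0.11, Hmox1 at -0.09 and Ftl1 at -0.25. Of the inducing cytokines, Tnf had 24.2 CPM (22.3 to 26.1), Il1a 6.62 CPM (5.68 to 7.67) and Il6 3 UMIs. Cxcl1, Cxcl2, Cxcl5, Ccl20 and Il33 were thus counted in cells where Cxcr1, Cxcr2, Ccr6 and Il1rl1 gave few or no UMIs at this depth. Receptor genes for the inducing cytokines Tnf and Il1a were not scarce, with 83.4 CPM for Tnfrsf1a and 118.9 CPM for Il1r1.

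Against the 9 genes summed, 7 of 27 lists had a rho of at least 0.3 in size: other acute phase genes (0.79), other chemokines (0.58), cytokine and pattern receptors (0.56), other NF-kB targets (0.50), epithelial defence genes (0.43), duct markers (-0.33) and epithelial markers (-0.52). The duct list did not move as a unit. With Lcn2, 4 of 10 tested duct genes reached 0.3 and 2 fell to -0.3, where 2.37% and 1.96% of all genes did. The list median was 0.19. The osteopontin gene Spp1 stood at 0.60, Sox9, a duct transcription factor gene, at 0.48, Cftr at 0.39 and Slc4a4 at 0.33. The keratin genes Krt19 and Krt7 stood at -0.65 and -0.53. The epithelial list did not move as a unit either. Of its 10 genes 4 fell to -0.3 with Lcn2: Krt19, Krt7, Ezr (-0.49) and Krt8 (-0.43). Krt18 stood at -0.27, Cdh1 at -0.10, Tjp1 at -0.06, Cldn4 at 0.04, and Epcam and Cldn7 at 0.14. Krt8 (5541 CPM) and Krt7 (3644 CPM) had the most UMIs in that list (17049 CPM pooled). In the acute phase list Cp made 866 of 1290 pooled CPM. The G2/M list (0.04), the S phase list (0.10), the STAT3 list (0.04) and the NRF2 list (-0.0012) stood near 0, and acinar markers stood at -0.16. Injury and metaplasia genes and hypoxia genes were at -0.26 each. Lcn2 had more UMIs than any other gene in the sum, and with it left out 8 lists reached that size. The cytokine list, in which Il1rn had the most UMIs, stood at 0.10 with the sum.

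**Figure D4:**
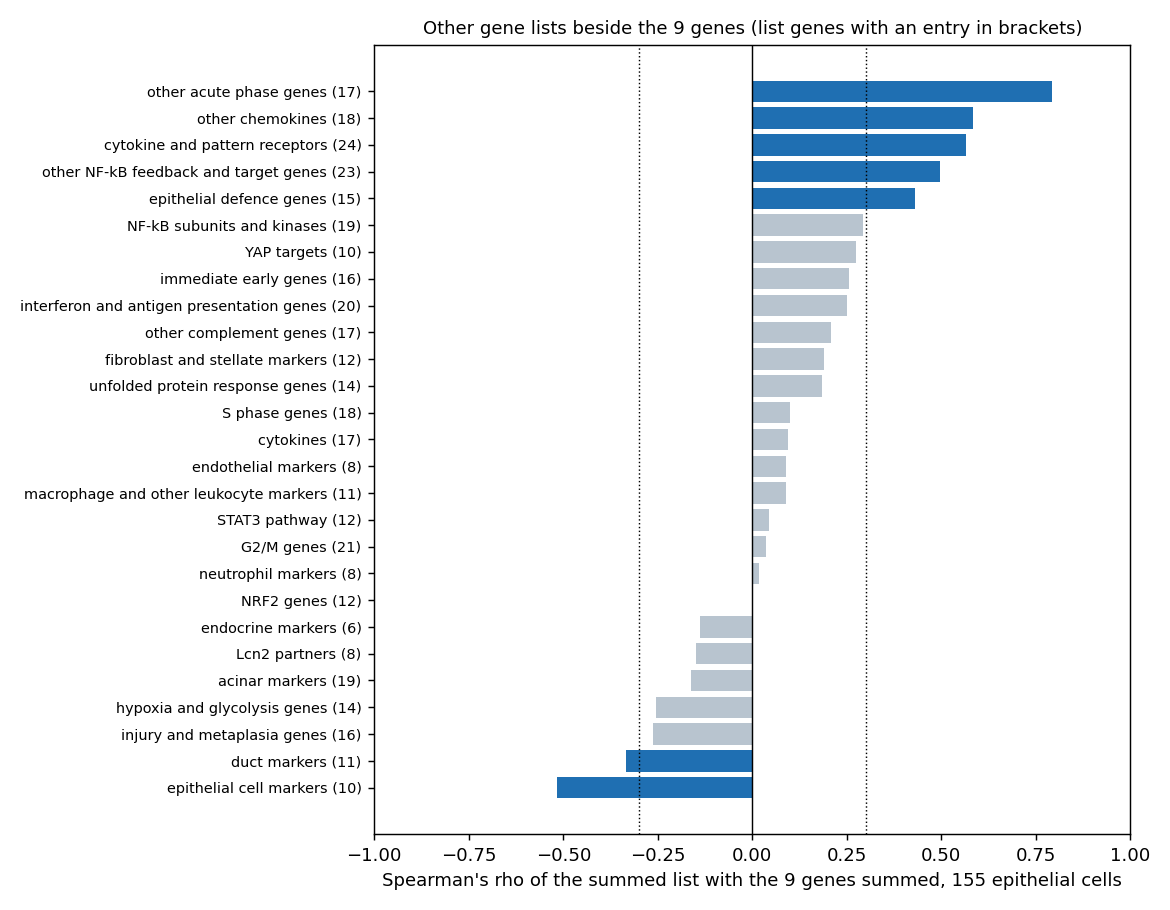
Spearman's rho of each gene list, summed, with the 9 genes summed, over thinned epithelial cells; bars are blue at a rho of at least 0.3 in size (dotted lines) and grey otherwise. Acute phase genes reach 0.79 at the top, and epithelial markers -0.52 at the bottom.

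Title numbers were the only sign of batches in the labels, and what they stand for is not said. In blocks of 24 numbers the median summed level of the 9 genes ran from 1444 to 4163 CPM. The highest was in block 97 to 120, whose cells were the shallowest with a median of 42594 UMIs, against 109699 to 214120 UMIs in the other blocks. That block also had the highest median Lcn2, 1559 CPM, and the part of depth in it was not tested. Pooled levels were 3066 CPM for titles 1 to 96 and 3345 CPM for the higher titles, and pairs reaching a rho of 0.3 numbered 17 and 16 in those cells.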

How the data were processed

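The authors deposited a table of raw UMI counts and a table of raw read counts per gene for each cell, without normalization. The submitters' processing notes list STAR, featureCounts, GRCm38 and mm10 and give no version. The step from reads to UMIs is not described in the sources used. Both tables list 32100 Ensembl identifiers, of which 31963 were given a symbol of their own. Cells were matched by title. No 2 cells had identical counts, and no cell was removed for low depth or mitochondrial RNA. Per the labels a sample is 1 cell. Doublets were not called, and whether any sample held more than 1 cell was not tested.

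UMI counts were scaled to CPM. Excess variation was taken over a running median of 101 genes. Cells were thinned without replacement, and Spearman's rho was computed for the 9638 genes that averaged 0.5 UMI or more. The scripts were tested on simulated data. The genes and lists were chosen with earlier results of these data known. Named genes are the 9 genes, up to 4 most abundant genes and the 3 with the highest absolute rho with Lcn2 in each pathway list, ligands and receptors paired with the 9 genes, the genes nearest to each member, the 5 deep cells with the highest sum, and, chosen after their values were seen, the further genes with a rho of 0.3. Alternatives were read counts, other cell sets, depths, filters and thresholds. Leaving out the acinar-rich cell Acinar52, counting Acinar85 as epithelial, the 2 draws per cell and reads per kilobase were added after seeing the data. Gene positions are GENCODE's and promoters RefSeq's. Python 3.11.15, numpy 2.4.6, pandas 2.3.3, scipy 1.17.1 and matplotlib 3.10.9 were used.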

Additional observations from a re-analysis of the deposited data

How the results depend on the processing

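The pooled sum of the 9 genes was 3182 CPM. It moved by more than its counting interval to 3615 CPM with read counts and 3252 CPM with equal weight per cell. Over a total without mitochondrial and acinar genes it was 3224 CPM, and over all cells 3084 CPM. It was 3066 CPM for titles 1 to 96 and 3345 CPM for the higher titles. Without the 1 epithelial cell with the most summed UMIs of the 9 genes it was 3137 CPM. Pairs with a rho of at least 0.3 numbered 16 or 17 of 28 under all alternatives, the pair that crossed being Lcn2 and Ccl20. Pathway genes at the threshold with Lcn2 were 21, against 34 at a rho of 0.2 and 13 at a rho of 0.4. Lists past 0.3 in size were 7, against 12 for titles 1 to 96 alone. No value changed sign among those called. No paired analysis was possible because all cells form 1 group and no test was made. Cells of unknown animals allow no spread between cultures to be given. Il33 and Saa3 have few UMIs, and how far this limits their rho was not tested. Only 6 fibroblast-rich cells stand beside the epithelium.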
